A study of Mus musculus with 18 samples.

Results

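The DNA replication genes described here are 49 genes whose products license, fire and copy origins of replication, supply the nucleotides and restore DNA methylation behind the fork. They were taken from a list of symbols, not by a measured value, though the list was chosen with earlier results of these data known. All 49 matched 1 Ensembl gene each among the 55487 genes counted, lay on 16 chromosomes, and had at least 55 and up to 20969 counts in every library, so that all 49 passed the filter on low counts that left 15318 genes. They fall into 8 roles, which are origin licensing (12 genes), origin firing and the fork helicase (8), primase and polymerases (9), the clamp and its loader (6), single-strand binding and the lagging strand (5), nucleotide synthesis (5), maintenance methylation (2) and E2F factors (2).

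RNA was sequenced from WEHI-231, a murine B cell lymphoma line from a cross of BALB/c and NZB mice that carries surface IgM. Parental cells (genotype WT) and the lines TFEB KO #A-59 and TFEB KO #B-20 were left unstimulated (0 h) or received anti-IgM F(ab')2 fragments at 10 µg/ml for 6 or 18 h to stimulate the BCR, with 2 libraries in each of the 9 groups. The study asked how loss of TFEB, a transcription factor of lysosomal and autophagy genes, alters gene expression after BCR stimulation. Each mutant line grew from 1 cell electroporated with Cas9 and a guide RNA against an exon of Tfeb, so that a property of a clone and an effect of the mutation cannot be told apart. Tfeb transcript was lower but present in the clones, at 79.2 to 99.9 CPM (the counts of a gene scaled to one common library total) in parental libraries, 25.5 to 40.5 in #A-59 and 34.2 to 54.1 in #B-20. The paper calls these lines TFEB-deficient, and a transcript level does not measure the protein.

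Before a cell enters S phase, the origin recognition complex (ORC), Cdc6 and Cdt1 load the Mcm2 to Mcm7 helicase onto DNA. Kinases and further factors then turn it into the moving helicase, and the polymerases follow with their clamp. Most of these genes are transcribed under E2F factors as cells leave G1, and are low in resting cells. Stimulation of the BCR is known to stop the growth of WEHI-231 cells and to drive them into apoptosis.

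Sequence upstream of 4 members is shown first, since an E2F motif, which the list did not use, lies near the start site of some members. The letters are RefSeq sequence on GRCm38.p6, upstream of the annotated start site, 5′ to 3′ on the strand of the gene. Capitals mark matches to an E2F motif, taken as TTTCGCGC, TTTGGCGC, TTTCCCGC or TTTGCCGC on either strand, with overlapping matches counted. The windows belong to Mcm6 (chr1:128359706-128359835, minus strand, with 3 matches, 2 of which overlap), Mcm5 (chr8:75109339-75109459, plus strand, 2 overlapping matches on opposite strands), Gins3 (chr8:95633459-95633558, plus strand, 1 match read on the opposite strand) and Pold2 (chr11:5878257-5878386, minus strand), the member with the largest fall at 18 h in parental cells, which has no match.
Mcm6: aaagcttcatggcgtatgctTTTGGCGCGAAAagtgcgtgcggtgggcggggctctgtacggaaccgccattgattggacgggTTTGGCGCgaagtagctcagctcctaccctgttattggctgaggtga
Mcm5: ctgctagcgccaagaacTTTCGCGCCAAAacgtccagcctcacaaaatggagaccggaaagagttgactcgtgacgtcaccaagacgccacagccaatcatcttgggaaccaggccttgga
Gins3: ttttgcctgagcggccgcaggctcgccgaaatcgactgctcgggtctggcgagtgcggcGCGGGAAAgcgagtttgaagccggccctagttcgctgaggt
Pold2: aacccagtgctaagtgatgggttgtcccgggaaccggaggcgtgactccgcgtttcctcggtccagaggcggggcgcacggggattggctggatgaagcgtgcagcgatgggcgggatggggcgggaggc

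A window from 250 bases before to 50 bases after the start was at hand for 41 of the 49 members, 9 of which had several windows at different starts, and a gene was counted where any of its windows held a match. An E2F motif lay in 17 of these 41 (41.5%), against 4.65% of the 10172 tested genes with a window and 2.6% of all 27025 genes with one. TTTCGCGC was found in 8 members, TTTGGCGC in 8 and TTTCCCGC in 7, and TTTGCCGC in 0. Besides Mcm6, Mcm5 and Gins3 the 17 were Orc1, Cdc6, Cdt1, Mcm3, Mcm7, Pola1, Pold1, Pold3, Pole2, Rfc3, Lig1, Uhrf1, Dnmt1 and E2f2. In 14 of them the first window listed held the motif, and Lig1, Uhrf1 and Dnmt1 had it only in the window of a later start. In 10 of the 17 a match began before the start site. Among the other letters searched on both strands, the CCAAT box lay in 61% of the 41 members and 42.6% of tested genes, the E-box CACGTG in 14.6% and 11.5%, the cell cycle element TTTGAA in 22% and 14.5%, and TATAAA in 7.32% and 8.71%. A match is a run of letters in this window and no evidence of a bound factor.

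As a whole, the 49 genes took a small and changing share of the counts. They held 0.479% to 0.992% of the counts of a library, and their summed level is given here in CPM scaled between libraries. In parental cells it was 8184 and 7302 CPM at 0 h, 8933 and 8352 after 6 h, and 5874 and 5490 after 18 h. In #A-59 the sums were 8119 and 7340 at 0 h, 9766 and 8541 after 6 h, and 4879 and 4925 after 18 h. In #B-20 they were 8396 and 7685 at 0 h, 8982 and 8602 after 6 h, and 6999 and 7326 after 18 h. The genotypes overlapped at 0 h and at 6 h. At 18 h they did not, and both #B-20 libraries lay above both parental libraries, which lay above both #A-59 libraries. In such bulk libraries, fewer cells that express a gene and less RNA per cell cannot be told apart.

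**Figure D1:**
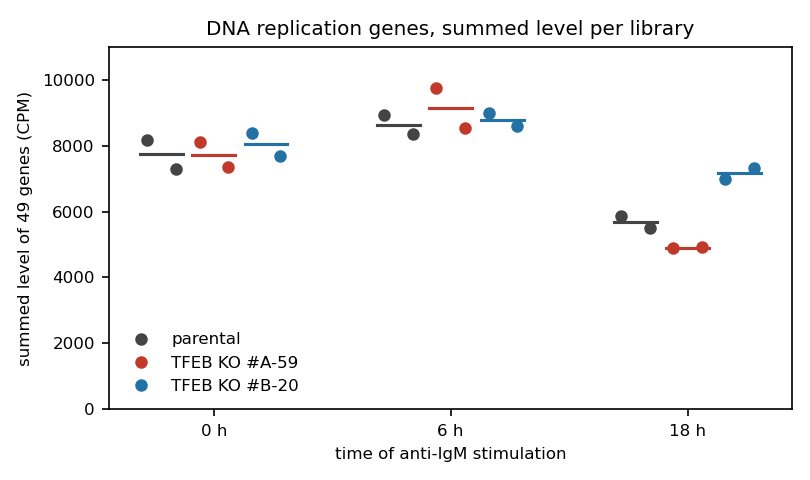
Summed level of the 49 DNA replication genes in each of the 18 libraries (points, CPM scaled between libraries) and the mean of the 2 libraries of a group (lines), by time of anti-IgM stimulation and genotype. At 18 h the sums were 5874 and 5490 CPM in parental cells, 4879 and 4925 in #A-59, and 6999 and 7326 in #B-20.

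Library depth was 11223588 to 29655262 counts with a median of 19846544, and differed between the groups at 18 h, at 11223588 and 19340288 counts in parental cells, 16765274 and 19456443 in #A-59, and 26984977 and 27472928 in #B-20. One library stood apart, since ENSMUSG00000106106 took 2.90% of the counts of #B-20 6 h replicate 2 and at most 0.457% elsewhere. In #A-59 6 h replicate 1 the share of mitochondrial genes was the lowest of the series (1.25%, and 1.89% in #A-59 6 h replicate 2). Its share of the members was the highest (0.992%, and 0.866% in replicate 2). All 9 B cell markers were expressed, summing to 6439 to 12765 CPM. Of the T cell, myeloid and stromal markers, Cd3e, Cd8a, Lyz2, Cd14, Col1a2, Col3a1 and Pdgfra had at most 3 counts in every library, and the summed levels of these lists were carried by Cd8b1 (up to 99.6), Itgam (up to 25.8) and Pecam1 (up to 157). Pecam1 and Itgam passed the test for a rise at 18 h in all 3 genotypes, as did Csf1r in #A-59, and their part in the changes below was not tested.

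The first comparison asked how the 49 genes responded to BCR stimulation within each genotype. At 6 h most of them were slightly higher than at 0 h, and few changes passed the test (edgeR's quasi-likelihood test, Benjamini-Hochberg adjusted p under 0.01 over all genes tested, at any fold). In parental cells 38 of 49 were higher, at a median log2 fold change of 0.19, and 4 passed, against 3.1% of all genes that passed upward. These were Rfc1 (0.55 ± 0.11, SE), the large subunit of the clamp loader, the loading factor Cdc6 (0.53 ± 0.12), the kinase Cdc7 (0.45) and Mcm10 (0.41), which helps to start the helicase. In #A-59 43 were higher, with a median of 0.21, and E2f1 (0.61 ± 0.14), Uhrf1 (0.53 ± 0.11) and Rfc1 (0.52 ± 0.12) passed, against 2.45% of all genes. With only the libraries compared in the fit, 8 genes passed in parental cells and 0 in #A-59, and DESeq2 gave 9 in #A-59. In #B-20 44 were higher, with a median of 0.12, and 0 passed by edgeR or DESeq2 (13 at an unadjusted p under 0.05), against 0.411% of all genes. Here and below, a share of all genes beside a count at an unadjusted p is a share at the adjusted threshold.

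Cdc6, among the genes that passed in parental cells, is given here library by library. Its level in parental cells was 77.5 and 62.4 CPM at 0 h and 108 and 93.6 after 6 h, so that the libraries did not overlap. In #B-20 Cdc6 was at 73.8 and 60.2 CPM at 0 h and 88.2 and 76.5 after 6 h, which did not overlap either but did not pass (adjusted p = 0.25). The early counts of parental cells and #A-59 rest on single libraries, and were larger with the replicate number as a block in the fit. In parental cells 0 genes passed without 0 h replicate 2 or without 6 h replicate 1 and 1 without 6 h replicate 2, and in #A-59 the number was 0 without 6 h replicate 1 or without 0 h replicate 2, 1 without either parental 18 h library, and 15 without 6 h replicate 2.

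By 18 h the direction had turned, and most of the 49 genes fell below their unstimulated level in parental cells and in #A-59. Here and below, a gene fell or rose where its change passed the test. In parental cells 31 of 49 fell and 1 rose, at a median log2 fold change of -0.49, where the median of all tested genes was 0.04 and 16.2% of them fell. In #A-59 39 fell and 1 rose, with a median of -0.78, against 17.1% of all genes that fell. In #B-20 7 fell and 1 rose, with a median of -0.20, against 11.4% of all genes that fell, and DESeq2 gave 12 that fell. Of all genes, 16.4%, 14.7% and 11.4% rose in parental cells, #A-59 and #B-20. Counted by sign alone, 45, 48 and 38 of the 49 were lower at 18 h. Most members shared a course over the libraries, so that counts by sign, here and at 6 h, are not independent. No share of all genes is given beside them. Both 0 h libraries lay above both 18 h libraries in 44 of 49 members in parental cells, where 36.2% of all genes did so. The number was 30 members in #B-20 (32% of all genes) and 45 in #A-59 (34.9%). DEGs, which in addition had a log2 fold change beyond 1, were 4 in parental cells (4.75% of all genes were DEGs downward), 10 in #A-59 (4.59%) and 1 in #B-20 (1.87%). With the replicate number as a block in the fit, more genes fell in #B-20. Without parental 18 h replicate 2, 20 genes fell in parental cells. In #B-20 the number that fell moved when single libraries were left out, also with the #A-59 6 h libraries, which are outside the comparison. Such a refit repeats the filter, the scaling and the shared spread. The median change in #B-20 was then -0.29 to -0.14.

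**Figure D2:**
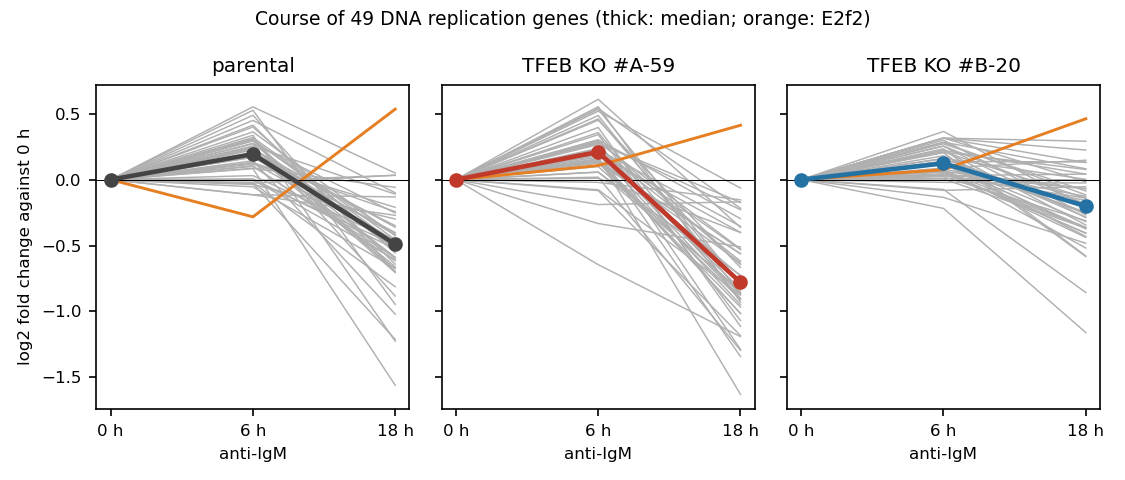
Log2 fold change of each of the 49 genes against 0 h of its own genotype (grey lines; E2f2 in orange) and their median (thick line with points) at 0, 6 and 18 h of anti-IgM. The median was 0.19, 0.21 and 0.12 at 6 h and -0.49, -0.78 and -0.20 at 18 h in parental cells, #A-59 and #B-20.

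Measured from 6 h instead of 0 h, the later fall was larger. In parental cells 40 of 49 genes fell between 6 and 18 h, with a median of -0.69, against 18.9% of all genes. In #A-59 44 fell, with a median of -0.95, against 17% of all genes, and 21 of them were DEGs, against 4.59% of all genes. In #B-20 23 fell, with a median of -0.37, against 11.1% of all genes, and 0 were DEGs by edgeR or DESeq2 (1.69% of all genes; 34 members had an unadjusted p under 0.05). Parental cells had 8 such DEGs, against 5.91% of all genes. The #B-20 count was 15 without the library that stood apart, 7 without 6 h replicate 1 and 5 without 18 h replicate 1.

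The genes of origin licensing had the lowest median of the roles in parental cells and #A-59. At 18 h against 0 h 11 of 12 fell in parental cells (median -0.69), all 12 in #A-59 (median -1.01) and 3 in #B-20 (median -0.32), which were Orc1, Orc2 and Gmnn. Orc1 (ENSMUSG00000028587, GRCm38 chromosome 4, 108575705 to 108616030), a subunit of ORC, was at 33.9 and 28.8 CPM in unstimulated parental cells, 40.0 and 39.1 after 6 h and 13.9 and 13 after 18 h. In #A-59 Orc1 was at 36.7 and 38.2 CPM at 0 h, 37.1 and 38.8 after 6 h and 17 and 13.4 after 18 h. In #B-20 it was at 40.8 and 37.1 CPM at 0 h, 49.9 and 41.7 after 6 h and 26.2 and 26 after 18 h. In each genotype the 18 h libraries lay below those of 0 h, and both #B-20 libraries of 18 h stayed above those of the other genotypes. The log2 fold change at 18 h was -1.23 ± 0.13 in parental cells (adjusted p = 4.05e-07), -1.30 ± 0.12 in #A-59 and -0.58 ± 0.12 in #B-20 (adjusted p = 0.000827).

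Orc2, another ORC subunit, was the 1 DEG of #B-20 and fell by a like amount in all 3 genotypes, with log2 fold changes of -1.21 ± 0.17, -1.19 ± 0.17 and -1.16 ± 0.17 in parental cells, #A-59 and #B-20. Its #B-20 libraries were at 86.3 and 102 CPM at 0 h and 33.1 and 51 after 18 h. Of its exons 1239 bases overlap those of Nif3l1 on the opposite strand, and the libraries were not stranded, so that the reads of both cannot be told apart there. The exons of 17 members overlap those of another gene. Among them, on the opposite strand, are Orc1 (695 bases with Gm12743), Pcna (499 with AV099323), Tk1 (630 with Syngr2) and Cdc45 (459 with Ufd1). Cdt1, which brings the helicase to ORC, changed least of the group in parental cells. Its level there was 101 and 85.2 CPM at 0 h, 111 and 106 after 6 h and 74.6 and 70.3 after 18 h, a change of -0.36 ± 0.15 that did not pass (adjusted p = 0.0636). In #A-59 it fell, from 111 and 80.1 CPM to 61.2 and 61.3 (-0.64 ± 0.15). In #B-20 it was at 89.1 and 79.9 CPM at 0 h and 88.7 and 89.6 after 18 h.

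The 6 subunits of the helicase, Mcm2 to Mcm7, fell together in parental cells, from -1.02 for Mcm2 to -0.52 for Mcm4, and in #A-59, from -1.34 for Mcm2 to -0.73 for Mcm4. In #B-20 none of the 6 passed at 18 h against 0 h, with changes from -0.52 for Mcm2 (adjusted p = 0.0102) to -0.09 for Mcm7. Mcm3, described here because its course lay closest to that of the other members, was at 361 and 313 CPM at 0 h and 194 and 172 after 18 h in parental cells. In #A-59 the Mcm3 values were 361 and 310.2 CPM and 159 and 151, and in #B-20 372 and 323 and 279 and 291. The #B-20 libraries of 18 h therefore fell between the 0 h and the 18 h libraries of parental cells. Mcm3 was chosen after its values were seen.

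**Figure D3:**
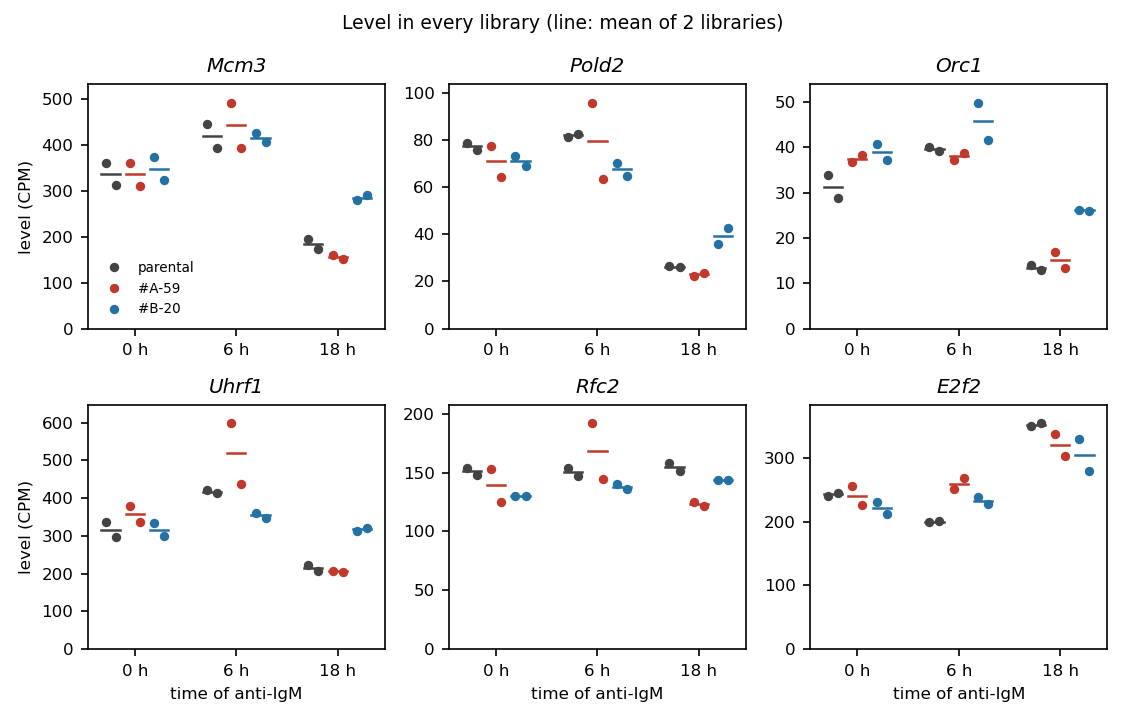
Level in CPM of Mcm3, Pold2, Orc1, Uhrf1, Rfc2 and E2f2 in each library (points) and the mean of the 2 libraries of a group (lines), by time of anti-IgM and genotype. Mcm3, Pold2, Orc1 and Uhrf1 were lower at 18 h than at 0 h in parental cells and #A-59, the parental Rfc2 libraries of 18 h overlapped those of 0 h, and E2f2 was higher at 18 h in each genotype.

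Genes of origin firing and the fork helicase fell in 4 of 8 cases in parental cells (median -0.47), in 6 in #A-59 (median -0.87) and in 0 in #B-20 (median -0.10). Gins2, a subunit of the GINS complex that joins Cdc45 and the Mcm ring, changed most in parental cells. Its libraries were at 15 and 14.6 CPM at 0 h, 21.1 and 20.4 after 6 h and 9.10 and 9.13 after 18 h, so that it rose above and then dropped below the unstimulated libraries, and only the fall passed (-0.70 ± 0.16). In #A-59 the values were 16.4 and 12.5 CPM at 0 h, 23.7 and 18.7 after 6 h and 7.44 and 7.84 after 18 h. In #B-20 they were 14.3 and 11.4 CPM at 0 h, 15.5 and 14.4 after 6 h and 13.5 and 12.9 after 18 h, with 18 h libraries inside the range of 0 h (0.04 ± 0.15). An overlap of 2758 exon bases with Gse1 on the opposite strand limits the reading of Gins2.

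Gins4 of the same complex stayed close to its unstimulated level in parental cells, at 37 and 36 CPM at 0 h and 34.9 and 35.2 after 18 h (-0.06 ± 0.09, adjusted p = 0.624). It fell in #A-59, from 37.9 and 38.9 to 28.9 and 31.2 CPM (-0.35 ± 0.09), and was at 35.5 and 34 CPM at 0 h and 39.4 and 36.8 after 18 h in #B-20 (0.13 ± 0.09). The other 6 genes of this role included Mcm10 and Cdc45, which fell in parental cells and #A-59, and the kinase subunits Cdc7 and Dbf4, for which no change at 18 h against 0 h passed in any genotype.

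Among the primase and polymerase genes 5 of 9 fell in parental cells (median -0.42), 7 in #A-59 (median -0.53) and 2 in #B-20 (median -0.14). Pold2 (ENSMUSG00000020471, chromosome 11, 5872180 to 5878256), the small subunit of polymerase δ, had the largest fall of all 49 genes in parental cells and in #A-59. It was at 78.6 and 75.8 CPM at 0 h, 81.3 and 82.4 after 6 h and 26.4 and 26 after 18 h in parental cells. In #A-59 it was at 77.5 and 64 CPM at 0 h, 95.7 and 63.3 after 6 h and 22.2 and 23.6 after 18 h. In #B-20 it was at 73.2 and 68.9 CPM at 0 h, 70.3 and 64.7 after 6 h and 36 and 42.6 after 18 h. The 18 h libraries lay far below those of the earlier times in each genotype, with log2 fold changes of -1.56 ± 0.15, -1.63 ± 0.15 and -0.86 ± 0.14, and all 3 passed.

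Pold1, the catalytic subunit of the same polymerase, changed least of this role in parental cells, with 430.0 and 408 CPM at 0 h, 514 and 487 after 6 h and 395 and 381 after 18 h (-0.11 ± 0.14, adjusted p = 0.552). In #A-59 Pold1 was at 512 and 397 CPM at 0 h, 794 and 527 after 6 h and 386 and 396 after 18 h, and in #B-20 at 353 and 341 CPM at 0 h, 438 and 425 after 6 h and 433 and 415 after 18 h. Neither clone passed at 18 h against 0 h. A further subunit of the same enzyme, Pold3, was at -0.13, -0.15 and -0.05 in the 3 genotypes, none past the threshold. The polymerase ε subunits Pole (-0.61 and -0.83) and Pole2 (-0.66 and -0.84) fell in parental cells and #A-59, as did Pola1 and Pola2 of polymerase α.

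The clamp and its loader were mixed. Of 6 genes 3 fell in parental cells (median -0.44), 4 in #A-59 (median -0.61) and 0 in #B-20 (median -0.14). Pcna, the sliding clamp, had a change of -0.47 ± 0.14 in parental cells (adjusted p = 0.0114) and fell in #A-59 (-0.67 ± 0.14). Rfc5, a small subunit of the loader, fell from 138 and 124 to 88.3 and 77.1 CPM in parental cells (-0.67 ± 0.11) and from 161 and 143 to 90.2 and 88.3 CPM in #A-59 (-0.77 ± 0.11). In #B-20 it was at 149 and 134 CPM at 0 h and 111 and 116 after 18 h (-0.32 ± 0.11, adjusted p = 0.0268). Rfc2, another small subunit, was at 154 and 148 CPM at 0 h and 158 and 151 after 18 h in parental cells, overlapping values (0.03 ± 0.11). In #A-59 it was at 153 and 125 and 125 and 122 CPM, and in #B-20 at 129.9 and 130.0 and 144 and 144. Rfc5 shares 2905 exon bases with Wsb2 and Rfc2 shares 1708 with Lat2, each on the opposite strand.

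Of the 5 genes for single-strand binding and the lagging strand 2 fell in the parental line, 4 in #A-59 and 0 in #B-20, with medians of -0.48, -0.63 and -0.28. Fen1, the flap nuclease of Okazaki fragments, had the lowest counts of all members and the widest errors. It was at 8.75 and 7.16 CPM at 0 h and 4.91 and 4.93 after 18 h in parental cells (-0.70 ± 0.23, adjusted p = 0.0208). In #A-59 it fell from 10.0 and 10.0 to 3.25 and 5.67 CPM (-1.18 ± 0.23), and in #B-20 it was at 8.97 and 11.4 and 5.65 and 7.98 CPM (-0.58 ± 0.21, adjusted p = 0.0414). Exons of Gm10143 cover 1909 of its exon bases on the opposite strand, and the reads there cannot be assigned to a strand. Lig1, the ligase of the lagging strand, fell in parental cells (-0.50 ± 0.09) and #A-59 (-0.62 ± 0.09) and had a change of -0.07 ± 0.09 in #B-20. Rpa3, the smallest subunit of the single-strand binding protein RPA, was at 39.8 and 33.3 CPM at 0 h and 38 and 37 after 18 h in parental cells (0.03 ± 0.12), at 32.4 and 39.5 CPM at 0 h and 31 and 32.8 after 18 h in #A-59, and at 49 and 42.8 CPM at 0 h and 37.1 and 36.9 after 18 h in #B-20 (-0.31 ± 0.12, adjusted p = 0.0456). The larger subunit Rpa2 fell in parental cells (-0.48) and in #A-59 (-0.91).

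Nucleotide synthesis genes fell in 4 of 5 cases in parental cells and in #A-59 and in 2 in #B-20, with medians of -0.53, -0.85 and -0.36. Dut, the enzyme that clears dUTP, was at 192 and 163 CPM at 0 h, 180.4 and 169 after 6 h and 103 and 99.1 after 18 h in parental cells. In #A-59 it was at 180.4 and 157 CPM at 0 h, 201 and 172 after 6 h and 81.6 and 85.6 after 18 h, and in #B-20 at 180.2 and 176 CPM at 0 h, 187 and 184 after 6 h and 135 and 134 after 18 h. It fell in each genotype, with log2 fold changes of -0.81 ± 0.10, -1.01 ± 0.10 and -0.41 ± 0.10. Tk1, the thymidine kinase of the salvage pathway, changed least, at 63.2 and 58.3 CPM at 0 h and 49.5 and 52.3 after 18 h in parental cells (-0.25 ± 0.10, adjusted p = 0.0559), 66.2 and 58.1 CPM at 0 h and 51 and 50.4 after 18 h in #A-59, and 72.8 and 74.7 CPM at 0 h and 72.9 and 79 after 18 h in #B-20. The ribonucleotide reductase subunit Rrm1 fell in all 3 genotypes (-0.59, -0.85 and -0.43), and Rrm2 in parental cells and #A-59 (-0.35 and -0.53).

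Both genes of maintenance methylation fell in parental cells and #A-59 and neither passed in #B-20. Uhrf1, which recognises half-methylated DNA behind the fork, was at 337 and 296 CPM at 0 h, 421 and 413 after 6 h and 224 and 207 after 18 h in parental cells. In #A-59 it was at 379 and 337 CPM at 0 h, 598 and 438 after 6 h and 207 and 205 after 18 h. In #B-20 it was at 334 and 299 CPM at 0 h, 361 and 347 after 6 h and 314 and 321 after 18 h, with 18 h values inside the range of 0 h. The changes at 18 h were -0.56 ± 0.11, -0.80 ± 0.11 and 0.00 ± 0.11. Dnmt1, the methyltransferase it recruits, was at 553 and 522 CPM at 0 h and 448 and 425 after 18 h in parental cells (-0.30 ± 0.09), 537 and 469 CPM at 0 h and 332 and 348 after 18 h in #A-59 (-0.56 ± 0.09), and 505 and 486 CPM at 0 h and 469 and 519.8 after 18 h in #B-20 (-0.00 ± 0.09).

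The E2F factors did not move together. E2f2 was the 1 member that rose at 18 h, and it did so in each genotype. Its libraries were at 241 and 246 CPM at 0 h, 199 and 201 after 6 h and 350.3 and 355 after 18 h in parental cells, 256 and 226 CPM at 0 h, 251 and 268 after 6 h and 338 and 303 after 18 h in #A-59, and 231 and 212 CPM at 0 h, 239 and 228 after 6 h and 330.3 and 279.9 after 18 h in #B-20. All 18 h libraries lay above the 0 h libraries of their genotype, with log2 fold changes of 0.53 ± 0.09, 0.41 ± 0.09 and 0.46 ± 0.09. E2f1 was at 74.8 and 65.4 CPM at 0 h, 94.6 and 85.6 after 6 h and 53.1 and 51.3 after 18 h in parental cells (-0.43 ± 0.15 at 18 h, adjusted p = 0.0247). In #A-59 it was at 73.3 and 60.7 CPM at 0 h, 115 and 89.3 after 6 h and 56 and 48.4 after 18 h, and in #B-20 at 66 and 51.2 CPM at 0 h, 75.8 and 69.7 after 6 h and 70.7 and 57.4 after 18 h.

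**Figure D4:**
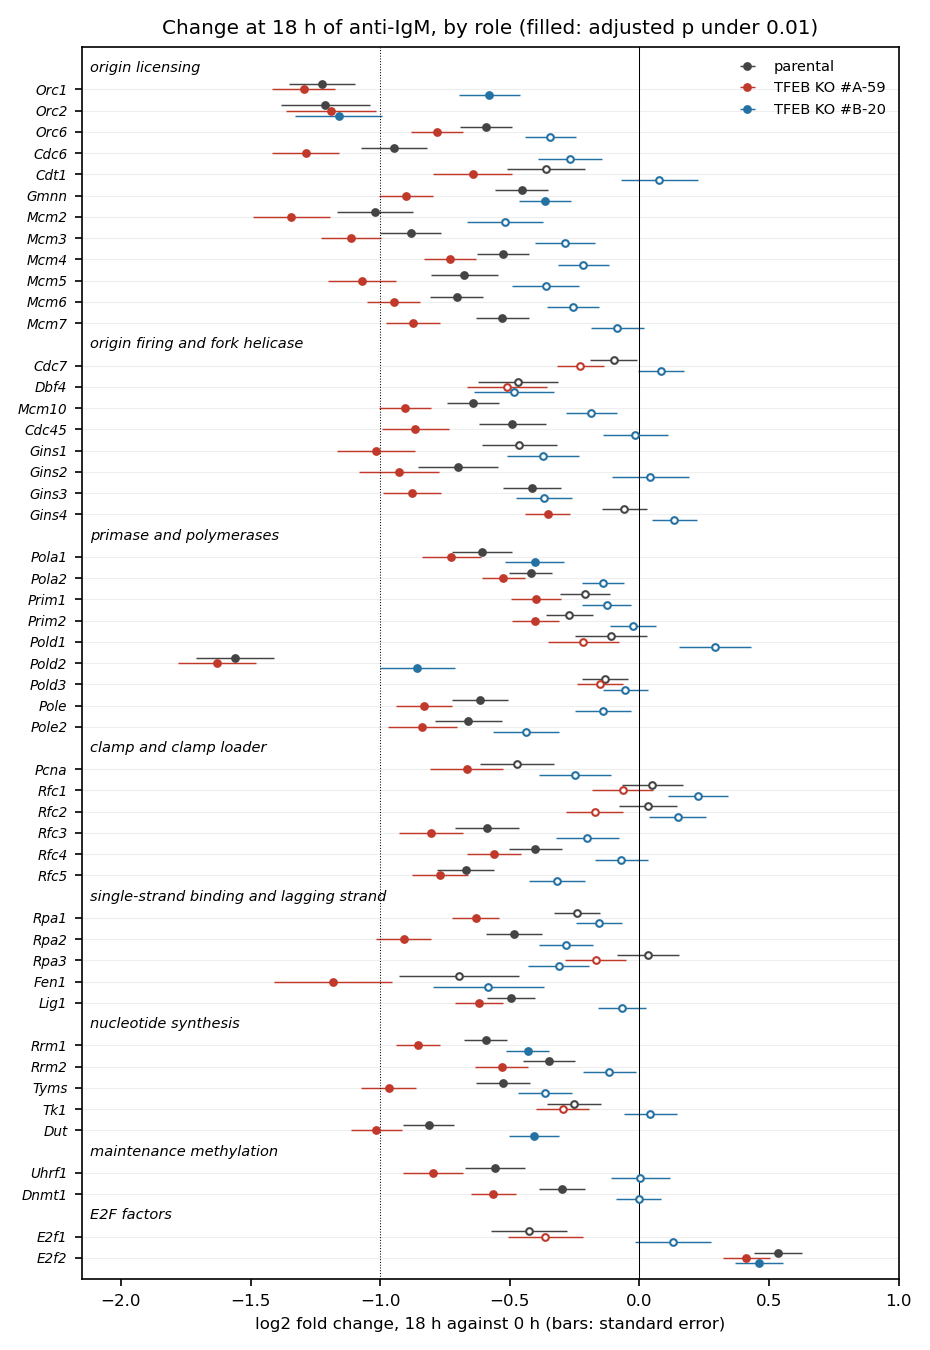
Log2 fold change of each of the 49 genes at 18 h against 0 h with its standard error, by role, in parental cells (grey), #A-59 (red) and #B-20 (blue). Filled points had an adjusted p under 0.01, the dotted line marks a log2 fold change of -1, and 31, 39 and 7 genes fell in the 3 genotypes.

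The second comparison set each clone against parental cells of the same time. At 0 h no difference passed in #A-59 by edgeR or DESeq2 (5 genes at an unadjusted p under 0.05, with 9.56% of all genes past the adjusted threshold), and in #B-20 0 passed by edgeR and 1 by DESeq2 (8 at an unadjusted p under 0.05, and 10.7% of all genes). The unstimulated median differences were -0.01 and 0.07. At 6 h 5 of 49 differed in #A-59, against 22.7% of all genes, and 1 in #B-20, against 14.2%. In #A-59 these were Orc2 (-1.03 ± 0.17), Pole2 (-0.57) and the kinase subunit Dbf4 (-0.56), which were lower, and E2f2 (0.37) and Rfc5 (0.49), which were higher. The Orc2 libraries of 6 h were at 38.3 and 46.7 CPM in #A-59 and 87.7 and 84.7 in parental cells, with no overlap. The 6 h count of #A-59 was 2 without replicate 1 of either genotype, 1 without parental replicate 2 and 9 without #A-59 replicate 2, and 1 with only the libraries compared in the fit. The 1 gene of #B-20 was Pold3 (0.36), and 0 passed without either parental 6 h library, without #B-20 6 h replicate 1 or without either parental 18 h library, and 3 without either #A-59 6 h library. With only the libraries compared 12 passed in #B-20.

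At 18 h the clones departed from parental cells in opposite directions. In #A-59 7 genes were lower and 0 higher, at a median of -0.23, against 5.68% of all genes that were lower and 4.75% that were higher. With only the libraries compared 13 were lower. They were Gins1 (-0.64 ± 0.16), Pole2 (-0.58), the licensing inhibitor Gmnn (-0.57), Cdc45 (-0.53), Tyms (-0.52), Rpa1 (-0.38) and Dnmt1 (-0.36). In #B-20 20 genes were higher and 0 lower, at a median of 0.37, against 5.7% of all genes that were higher and 8.55% that were lower. The largest were Orc1 (0.96 ± 0.13), Mcm3 (0.64 ± 0.12), Cdc6 (0.62 ± 0.13), Pole (0.59) and Pold2 (0.58), and the others ranged down to 0.35 for Cdc7. By role these 20 were 6 of 12 licensing genes, 2 of 8 of firing, 4 of 9 of primase and polymerases, 2 of 6 of the clamp and loader, 1 of 5 of the lagging strand, 4 of 5 of nucleotide synthesis, Uhrf1, and 0 of the E2F factors. The clones share the parental libraries, so that their comparisons are not independent.

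**Figure D5:**
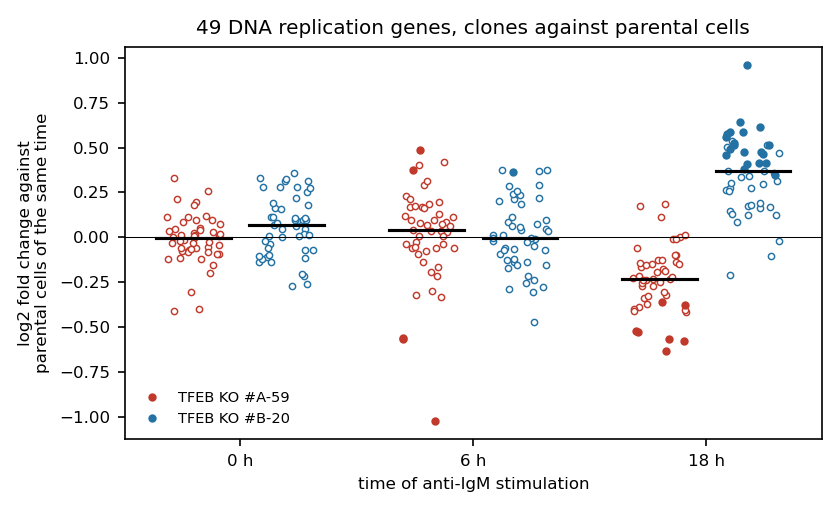
Log2 fold change of the 49 genes in #A-59 (red) and #B-20 (blue) against parental cells at 0, 6 and 18 h of anti-IgM. Each point is a gene, filled where the adjusted p was under 0.01, and black lines are medians, which at 18 h were -0.23 in #A-59 and 0.37 in #B-20.

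These counts depend on the parental libraries of 18 h, which include the shallowest of the series. Without parental 18 h replicate 2 the #B-20 count was 2, without replicate 1 it was 12, and without #B-20 18 h replicate 2 it was 8. The #A-59 count was 0 without parental 18 h replicate 1 or #A-59 18 h replicate 1, 1 without parental 18 h replicate 2, 2 without #A-59 18 h replicate 2, 3 without any of the 6 h libraries of parental cells or #B-20, and 4 without either #B-20 0 h library. The levels themselves did not overlap for most members, since both #B-20 libraries of 18 h lay above both parental libraries in 43 of 49 genes, against 31.4% of all genes. Both parental libraries lay above both of #A-59 in 38 of 49, against 33% of all genes.

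Compared with each other, the clones differed most at 18 h. At 0 h 0 genes passed by edgeR or DESeq2 (10 at an unadjusted p under 0.05, with 8.41% of all genes past the threshold). At 6 h 4 passed, against 18.7% of all genes, namely Orc2 (0.93) and Rpa3 (0.57), higher in #B-20, and Pold1 (-0.62) and Uhrf1 (-0.55), lower in #B-20. The GC correction took Rpa3 to -0.015 and ended the calls of Pold1 and Uhrf1, and with only the libraries compared 1 of the 4 passed, Orc2. The count was 0 without #A-59 6 h replicate 1, 11 without #A-59 6 h replicate 2, and 2 and 1 without #B-20 6 h replicate 1 or 2. At 18 h 38 of 49 were higher in #B-20 and 0 lower, at a median of 0.62, against 8.08% of all genes that were higher, and 24 without #A-59 18 h replicate 1. Cdc6 was the 1 DEG (1.02 ± 0.13, adjusted p = 1.01e-05), at 55.8 and 55.4 CPM in #B-20 and 27.4 and 27.3 in #A-59. Gins1 (0.98), Cdc45 (0.90), Mcm3 (0.88) and Mcm5 (0.86) followed. Both #B-20 libraries lay above both #A-59 libraries in 47 of 49 genes, against 32.1% of all genes.

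Whether the response itself differed was tested as an interaction of clone and time, and no member passed. For #A-59 0 passed by edgeR or DESeq2 at 6 h (3 at an unadjusted p under 0.05, and 0.646% of all genes passed) and at 18 h (11, and 0.0392%). For #B-20 0 passed by either tool at 6 h (1, and 0.183%) and at 18 h (21, and 0.222%), where 7 passed by edgeR without the filter on low counts. The median difference of the 18 h response was -0.21 in #A-59 and 0.28 in #B-20, with 47 of 49 genes below 0 in #A-59 and 46 above 0 in #B-20. The signs of members that share a course are not independent, and no share of all genes is given for these sign counts. Orc1 had a difference of 0.65 ± 0.17 in #B-20 (adjusted p = 0.0903). The 18 h response of #B-20 against that of #A-59, a comparison added after the data were seen, had a median difference of 0.51 with 48 of 49 above 0. There 0 passed by edgeR (39 at an unadjusted p under 0.05, and 0.0522% of all genes passed) and 10 by DESeq2, with 22 by edgeR without the filter on low counts, and edgeR passed 10 and 12 without #A-59 6 h replicate 1 or 2. Mcm3 differed by 0.83 ± 0.16 there (adjusted p = 0.0273). Counts at an unadjusted p have no share of all genes beside them, since the shares given are at the adjusted threshold.

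Levels per length, as CPM per kb of merged exons in unstimulated parental cells, ranged widely among the members. Rrm2 was highest at 90.2, followed by Pold1 (70.7), Lig1 (70.1), Mcm6 (67.4) and Dnmt1 (63.2). Orc1 (5.45), Gins2 (3.61) and Fen1 (2.46) were lowest.

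Across the 18 libraries most members followed a shared course. The log2 level of a member correlated with the mean of the other members at a median Pearson r of 0.918, with 39 members over 0.8. Mcm3 (0.990), Mcm4 (0.986) and Mcm6 (0.983) were highest. The 5 members under 0.5 were Pold1 (0.465), Rfc2 (0.381), Pold3 (0.368), Rpa3 (0.314) and E2f2 (-0.778). These values describe 18 libraries that share 9 groups and the same stimulation. Ranked in the same way over 10299 genes that are not members, the 10 closest courses included those of Chaf1a (r = 0.979), Ssrp1, Nsl1, Srrt, Eme1, Cnot9, Fancd2 and Mcm8 (0.968).

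Members with and without an E2F motif are given side by side, with no test. At 18 h 13 of the 17 with a motif fell in parental cells (median -0.56). Of the 24 with a window but no motif 14 did so (median -0.48), and of all tested genes 16.2%. In #A-59 the counts were 14 of 17 (median -0.80) and 18 of 24 (median -0.72), beside 17.1% of all tested genes. For #B-20 they were 2 of 17 (median -0.20) and 4 of 24 (median -0.27), beside 11.4% of all tested genes.

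A list of 37 other genes of DNA replication had 35 that were tested, to be read against the shares of all genes given above for each comparison. At 18 h 21 fell and 2 rose in parental cells (median -0.44), 25 fell and 2 rose in #A-59 (median -0.63), and 8 fell and 2 rose in #B-20 (median -0.22). Those that fell included Chaf1a (-0.70 ± 0.10 in parental cells and -0.93 ± 0.10 in #A-59), the large subunit of the histone chaperone CAF-1, and Recql4 (-0.92 ± 0.14 and -1.02 ± 0.14), a helicase of origin firing. The 2 that rose in each genotype were Samhd1 (0.89 ± 0.09, 0.99 ± 0.09 and 0.60 ± 0.09), which degrades dNTPs, and the mitochondrial thymidine kinase Tk2 (0.75 ± 0.12, 0.64 ± 0.12 and 0.67 ± 0.12), which did not pass in either clone without its own 18 h replicate 1 or 0 h replicate 2. The #B-20 count that fell was 2 to 14 when single libraries were left out. Against parental cells at 18 h 12 were higher (5.7% of all genes) and 1 lower (8.55%) in #B-20, among them Chaf1b (1.01 ± 0.09) and the nuclease Dna2 (0.89 ± 0.09) as higher and Samhd1 (-0.39 ± 0.09) as lower, which did not pass without either parental 18 h library or #B-20 18 h replicate 2. In #A-59 1 was higher and 3 lower, the latter being Timeless (-0.54 ± 0.13), Clspn (-0.49 ± 0.10) and Dtymk (-0.41 ± 0.09). The 12 were 4 and 6 without parental 18 h replicate 2 or 1 and 5 without #B-20 18 h replicate 2, and the 3 of #A-59 were 0 without parental 18 h replicate 1 or either #A-59 18 h library and 1 without parental 18 h replicate 2.

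Of 11 tested genes of other E2F factors, their partners and the pocket proteins, 3 fell (16.2% of all genes) and 3 rose (16.4%) in parental cells at 18 h, and 1 rose without parental 0 h replicate 2. Tfdp1, the partner with which E2F factors bind DNA, fell in each genotype (-1.11 ± 0.10, -1.22 ± 0.10 and -0.72 ± 0.09), as did E2f4 and E2f6. The call of E2f4 in #B-20 rested on single libraries, at -0.48 without #B-20 0 h replicate 2 and -0.38 without #B-20 18 h replicate 1. The pocket protein Rbl2, known from resting cells, rose in each genotype (0.98 ± 0.10, 0.82 ± 0.10 and 0.74 ± 0.10), and Rb1 rose in parental cells (0.80 ± 0.16) and #A-59 (0.79 ± 0.16). The call of Rb1 in #A-59 rested on #A-59 0 h replicate 1, without which its change was 0.68. Against parental cells at 18 h Tfdp1 was higher in #B-20 (0.51 ± 0.09) and Rb1 lower (-0.73 ± 0.16), as was Tfdp2 (-0.58 ± 0.12), and neither of the lower genes passed without either parental 18 h library or #B-20 18 h replicate 2, and Tfdp1 did not pass without the latter.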

How the data were processed

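RNA from 18 WEHI-231 cultures was measured. The deposited values are whole counts of reads for each Ensembl gene, which the authors made from non-stranded single-end libraries with STAR 2.5 and featureCounts 1.5.0-p1 on GRCm38 per the submitters' processing notes, and the counting options are not given in the sources used here. In edgeR 4.0.16 (R 4.3.3), genes were filtered by filterByExpr (15318 kept), libraries scaled by TMM, and all 18 libraries entered a robust quasi-likelihood fit with 9 group means. The Benjamini-Hochberg adjustment was made within each comparison. A gene passed at an adjusted p under 0.01, as a DEG with a log2 fold change beyond 1 as well, as in the study. SE is the log2 fold change over the root of F. CPM are TMM-scaled except for markers.

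The 49 members, the other lists and the tests were chosen with earlier results of these data known. Named are, per role, the members with the largest and smallest change at 18 h in parental cells, the riser there, DEGs, the 5 highest and 3 lowest levels per length, and the 10 non-members most alike (not all of which are reported here), besides members singled out by counts. The labels give 2 replicates a group. The p-values set a difference of means against the spread between replicates, pooled over all groups and shared across genes. They do not cover the variation between clones. Alternatives were DESeq2 1.42.0, its size factors in edgeR, no filter, a minimum of 10 counts per library, the compared libraries alone, the replicate block, a GC correction (loess, span 0.5, GC known for 99.2% of genes) and each library left out. Fits were tested on simulated counts. Exon lengths and overlaps are of GENCODE vM39 on GRCm39, matched by 93.2% of gene identifiers. Coordinates of genes are of GRCm38. Depth limits low genes. Fen1, at 55 counts in the lowest library, was the least counted.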

Additional observations from a re-analysis of the deposited data

How the results depend on the processing

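The counts of genes that fell at 18 h in parental cells and #A-59, from 0 h or from 6 h, and the count higher in #B-20 than in #A-59 at 18 h stayed within 1.5 times under every alternative that kept all libraries. Leaving out single libraries gave 20 to 37 falls in parental cells at 18 h against 0 h and 24 to 40 genes higher in #B-20 than in #A-59. Smaller counts moved more, and the cause was not tested.

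Without the filter on low counts 9 genes passed as higher in #A-59 at 6 h against 0 h, 1 and 8 differed between #A-59 and parental cells at 0 and 6 h, 2 genes differed between #B-20 and parental cells at 6 h, 2 and 7 between the clones at 0 and 6 h, and 1, 7 and 22 passed as differences of response (#A-59 at 6 h, #B-20 at 18 h, and the clones at 18 h). The median difference of the 18 h responses of #B-20 and parental cells was then 0.38. With the GC correction 7 genes passed in #A-59 at 6 h against 0 h, 2 and 3 differed between #B-20 and parental cells at 0 and 6 h, 1 and 1 between the clones at 0 and 6 h, and 4 between the 18 h responses of the clones. The same correction turned the sign of 1 named gene, Rpa3 in #B-20 against #A-59 at 6 h, to -0.015. With only the libraries compared 8 and 0 genes passed in parental cells and #A-59 at 6 h against 0 h, 1 and 13 in #A-59 against parental cells at 6 and 18 h, 12 in #B-20 against parental cells at 6 h, and 1 and 1 between the clones at 0 and 6 h. DESeq2 gave 9 in #A-59 at 6 h against 0 h, 12 falls in #B-20 at 18 h against 0 h, 1 and 2 differences of #B-20 from parental cells at 0 and 6 h, 7 between the clones at 6 h, and 10 between their 18 h responses.

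Whether libraries of the same replicate number are paired could not be decided. The paper describes independent experiments, but the labels do not tie a number to an experiment. Over 36 pairs of groups the correlation of their deviations ranged from -0.117 to 0.65, with a median of 0.141 and 22 over 0.1. The summed level of the members was higher in replicate 1 than in replicate 2 at 0 h and 6 h in every genotype. At 18 h this held in parental cells and in neither clone. The main fit had no term for the replicate number. The counts with such a term, given next, were each larger than in the main fit. With the replicate number as a block, 7 and 9 genes passed in parental cells and #A-59 at 6 h against 0 h, 13 fell in #B-20 at 18 h against 0 h, 11 were lower in #A-59 than in parental cells at 18 h, 1 and 3 differed between #B-20 and parental cells at 0 and 6 h, 2 and 7 between the clones at 0 and 6 h, and 8 between their 18 h responses.

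When single libraries were left out, the number that passed ranged from 0 to 5 in parental cells and 0 to 15 in #A-59 at 6 h against 0 h. In #B-20 2 to 15 genes fell at 18 h against 0 h (0 to 2 as DEGs) and 5 to 28 at 18 h against 6 h (0 to 2 as DEGs). In #A-59 against parental cells 1 to 9 differed at 6 h and 0 to 10 were lower at 18 h. In #B-20 against parental cells 0 to 1 differed at 0 h, 0 to 3 at 6 h, and 2 to 27 were higher at 18 h. Between the clones 0 to 1 differed at 0 h, 0 to 11 at 6 h, and 0 to 12 between their 18 h responses. Medians of the members ranged from 0.080 to 0.30 in parental cells and 0.12 to 0.26 in #A-59 at 6 h against 0 h, from -0.63 to -0.42 in parental cells and -0.29 to -0.14 in #B-20 at 18 h against 0 h, from -0.10 to 0.094 in #A-59 and -0.046 to 0.15 in #B-20 against parental cells at 0 h, from -0.050 to 0.12 and -0.32 to -0.092 for the response of #A-59 against that of parental cells at 6 and 18 h, and from -0.16 to 0.037 and 0.20 to 0.36 for that of #B-20. Of the values under an alternative of single genes that passed in the main fit, 6353 kept their direction and side of the threshold, 421 kept the direction only and 1 turned. Many of these alternatives left out a library outside the comparison, and calls gained under an alternative are not in this tally.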

Other observations

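Genes of mitosis and of cell cycle entry, which are not members, were counted in the same fits. Of all tested genes 16.2%, 17.1% and 11.4% fell at 18 h against 0 h in parental cells, #A-59 and #B-20, and 16.4%, 14.7% and 11.4% rose. Of 30 mitosis genes 7 fell and 2 rose at 18 h against 0 h in parental cells (median log2 fold change -0.20), 16 fell and 1 rose in #A-59 (median -0.40), and 1 fell and 1 rose in #B-20 (median -0.13). With single libraries left out the numbers that fell were 3 to 12, 10 to 19 and 0 to 6, with 3 without parental 0 h replicate 1, 4 without parental 18 h replicate 2 and 10 without #A-59 18 h replicate 1. Among those that fell were the checkpoint kinase Bub1b (-0.57 ± 0.08 in parental cells and -0.81 ± 0.08 in #A-59), Cdk1 (-0.53 ± 0.09 and -0.69 ± 0.09) and Plk1 (-0.46 ± 0.12 and -0.66 ± 0.12), whose parental fall did not pass without any one of the 4 libraries compared. The centromere histone Cenpa rose in each genotype (0.41 ± 0.08, 0.30 ± 0.08 and 0.41 ± 0.08). Its call in #A-59 rested on single libraries, also of the other genotypes, and its change was 0.32 and 0.26 without #A-59 0 h replicate 1 or 2.

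Of 13 genes of cell cycle entry 8 fell and 1 rose in parental cells, 7 fell and 2 rose in #A-59, and 6 fell and 2 rose in #B-20. The number that fell in parental cells was 5 without 0 h replicate 1 or either 18 h library, and in #B-20 0 to 2 rose with single libraries left out. Myc fell most in parental cells (-2.48 ± 0.34) and in #A-59 (-1.92 ± 0.33), and the kinase Cdk6 (-1.44 ± 0.11, -1.22 ± 0.11 and -0.90 ± 0.11) and the phosphatase Cdc25a (-1.05 ± 0.10, -1.02 ± 0.10 and -0.70 ± 0.10) fell in each genotype. In #B-20 Myc had a change of -1.16 ± 0.32 that did not pass. The CDK inhibitor Cdkn1b rose in each (0.90 ± 0.16, 0.84 ± 0.16 and 0.62 ± 0.16). Its call in #B-20 rested on single libraries, also of the other genotypes, and its change was 0.53 and 0.66 without #B-20 18 h replicate 1 or 2. Against parental cells at 18 h Cdk6 (0.84 ± 0.11) and Cdc25a (0.51 ± 0.10) were higher in #B-20, the latter not without parental or #B-20 18 h replicate 2.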
